A study of Mus musculus with 12 samples.

Results

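The liver levels of 10 genes that encode the subunits of the transcription factor NF-κB and its inhibitors were followed in a mouse model of fulminant hepatitis. The members were the genes of the deposited table whose symbol was Nfkb1, Rela, Rel, Nfkb2, Relb, Nfkbia, Nfkbie, Tnfaip3, Nfkbiz or Bcl3, and all 10 were among its 11289 genes. Liver RNA of 12 C57BL/6J mice aged 8 to 10 weeks was sequenced, with 4 mice in each of the groups Con A + hWJ-MSCs, Con A + PBS and Control. Concanavalin A (Con A), a lectin from jack beans through which T cells are activated and the liver is injured, was given through the tail vein at 15 mg per kg, and 30 min later the mice received either PBS or 2000000 human mesenchymal stem cells grown from Wharton's jelly of the umbilical cord (hWJ-MSCs) by vein. Livers were collected 24 h after Con A. The labels' processing notes name only the mouse assembly, so RNA of the human cells was not measured on its own. What the control mice were injected with was not given by the labels, and the paper's text gives a lower age and fewer cells than the labels do. Each animal is called by its group and replicate number, and the whole liver was measured, so fewer cells of a type and less RNA per cell cannot be told apart.

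NF-κB is a dimer of Rel-family proteins that waits in the cytoplasm, held by inhibitors of the IκB family, until signals from tumor necrosis factor, interleukin-1 or Toll-like receptors lead the IKK kinases to mark the inhibitor for destruction. In the canonical branch, dimers such as p50 (from Nfkb1) with RelA (from Rela) or c-Rel (from Rel) then enter the nucleus. In the noncanonical branch, the kinase NIK brings about the processing of p100 (from Nfkb2) to p52, which pairs with RelB (from Relb). NF-κB also drives genes that switch it off, among them Nfkbia (IκBα), Nfkbie (IκBε) and Tnfaip3 (A20, a ubiquitin-editing enzyme), while Nfkbiz (IκBζ) and Bcl3 are nuclear IκB proteins that work on promoters together with p50 or p52. In liver this pathway is known for acute phase and chemokine genes and for guarding hepatocytes from tumor necrosis factor-driven death.

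The members lay on 8 chromosomes of the mm10 assembly. Tnfaip3 spanned chr10:19000910-19015410 on the minus strand and its transcript had 9 exons. Nfkbia spanned chr12:55489411-55492647 on the minus strand with 6 exons, and Nfkb2 chr19:46304737-46312090 on the plus strand with 23 exons. Relb occupied chr7:19606217-19629438 and Nfkb1 chr3:135584655-135691546, both on the minus strand. The transcript named for Bcl3, at chr7:19808462-19811121, had only 3 exons and 755 bases, and an antisense gene, Gm16175, overlaps it, as the noncoding gene AC114539.1 overlaps Nfkb2 on the opposite strand. The library kit did not mark strand, so reads of these overlapping pairs cannot be told apart.

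The promoters of 7 of the 10 members were in the RefSeq table (GRCm38.p6), and Nfkb1, Relb and Nfkbiz had no entry. They are shown because NF-κB binds a short GC-flanked element, the κB consensus, and several members are known targets of NF-κB itself. A match to the consensus on either strand lay in the 250 bases before a start in 5 of these 7 members (Nfkb2, Nfkbia, Nfkbie, Rel and Tnfaip3) and not in Bcl3 or Rela. The same search found a match before 7.25% of all 32851 promoters in the table, and in 10.6% of the 8494 measured genes that had a promoter. The windows below run 5′ to 3′ along the gene up to the base before the start, with the bases of κB matches in capitals. They show the member with the largest change (Tnfaip3), a noncanonical subunit (Nfkb2), the classical inhibitor (Nfkbia) and, for contrast, the member that was not called after Con A (Rel).
Tnfaip3, chr10:19015411-19015660, minus strand: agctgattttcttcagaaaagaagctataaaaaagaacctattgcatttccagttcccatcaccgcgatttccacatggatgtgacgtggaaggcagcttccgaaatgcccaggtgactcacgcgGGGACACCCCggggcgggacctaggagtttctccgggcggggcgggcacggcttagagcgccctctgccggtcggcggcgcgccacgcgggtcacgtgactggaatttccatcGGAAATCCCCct
Nfkb2, chr19:46304487-46304736, plus strand: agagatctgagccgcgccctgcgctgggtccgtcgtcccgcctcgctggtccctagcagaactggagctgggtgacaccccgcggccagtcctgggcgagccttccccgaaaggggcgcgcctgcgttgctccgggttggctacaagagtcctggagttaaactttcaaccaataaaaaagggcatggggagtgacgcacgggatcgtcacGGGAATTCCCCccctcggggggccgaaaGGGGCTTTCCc
Nfkbia, chr12:55492648-55492897, minus strand: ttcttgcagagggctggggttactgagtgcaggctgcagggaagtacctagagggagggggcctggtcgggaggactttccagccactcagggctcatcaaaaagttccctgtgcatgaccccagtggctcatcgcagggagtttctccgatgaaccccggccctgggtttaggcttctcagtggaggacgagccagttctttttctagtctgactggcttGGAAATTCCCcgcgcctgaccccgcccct
Rel, chr11:23770970-23771219, minus strand: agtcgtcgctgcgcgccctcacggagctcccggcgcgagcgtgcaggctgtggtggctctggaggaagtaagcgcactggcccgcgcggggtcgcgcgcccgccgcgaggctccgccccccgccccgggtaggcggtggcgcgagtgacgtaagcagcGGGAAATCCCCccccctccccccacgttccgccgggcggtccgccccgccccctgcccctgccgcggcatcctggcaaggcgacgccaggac
In Tnfaip3 the matches began 125 and 12 bases before the start, and the first of them read as a match on both strands. Nfkb2 held overlapping matches that began 39 and 38 bases before its first start and another that began 11 bases before it. In Nfkbia the match began 29 bases before the start. Rel, whose level was not called different in any comparison below, had overlapping matches that began 92 and 91 bases before its start, so a match in this window did not go with a call in every member. A match is only a run of letters and no measure of binding.

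**Figure D1:**
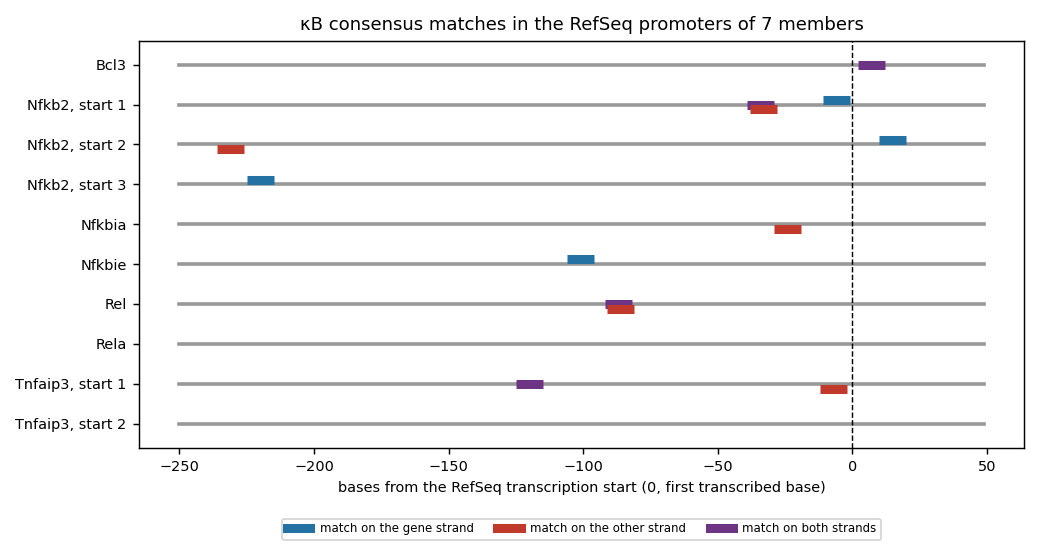
Position of κB consensus matches (colored blocks, by strand) along the 10 RefSeq promoter windows of 7 members, with the distance in bases from the transcription start on the horizontal axis and 0 at the first transcribed base (dashed line). Matches lay before a start in 5 members, and the last windows drawn for Nfkb2 overlap and share 1 match.

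The deposited values were whole numbers that had been normalized between mice, with totals of 17649654 to 17657159 per mouse and a median of 352 in every mouse, so sequencing depth is unknown and no counting interval can be given. Differences were tested by limma on log2(value + 1) with all 12 mice in 1 fit, and a call needed both a fold change over 1.5 and a p below 0.05 after Benjamini-Hochberg adjustment. All 10 hepatocyte markers were present, with summed values of 1278803 to 1545199 in controls, 717804 to 746470 after Con A + PBS and 704476 to 808507 after Con A + hWJ-MSCs. These sums are bounded by the normalization, since Alb stood at the table's largest value, 341028, and Cps1 at 147960 in all 12 mice, and Serpina1c was at the largest value in all 4 controls. On the leading principal component over all genes the controls lay at −79.6 to −66.9, Con A + PBS mice at 37.5 to 63.8 and Con A + hWJ-MSCs mice at −0.879 to 33.2, with replicate 2 the lowest of each Con A group. These replicates held the lowest value of 8 of the 10 members in their group, in each of the Con A groups, although no source says that equal numbers mark shared animals or days.

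Con A + PBS versus Control asks how the hepatitis itself moved the pathway. Of the 10 members, 9 were called up and none down, where 19.5% of all genes were called up and 19.2% down. In 9 members every Con A + PBS mouse lay above every control, which held for 27.1% of all genes. The median change of the members was 1.29 on the log2 scale, against 0.05 over all genes. The members and the pathway were chosen with results from these mice known, so these counts are no independent evidence of direction. Every gene of the table reaches at least 64 in its second-highest mouse, and Tnfaip3, Relb and Nfkbie did not do so among the controls. These 3 members are in the table only through the Con A groups, so their rises are partly fixed by its floor, as for 723 of all genes, of which 454 were called up.

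Tnfaip3 had the largest change. It read 44, 75, 49 and 50 in the control mice, 838, 406, 623 and 1026 in the Con A + PBS mice, and 171, 109, 132 and 206 in the Con A + hWJ-MSCs mice. The groups did not overlap in any pairing, the Con A + PBS mice being highest and the controls lowest. The gene rose 12.6-fold after Con A (log2 fold change 3.65 ± 0.28, SE, limma adjusted p = 1.06e-06), a change larger than that of 98.9% of all genes. The rise over the controls and this rank are partly fixed by the table's floor, since Tnfaip3 is listed only through the Con A groups. Its level in Con A + hWJ-MSCs mice was 4.53-fold lower than in Con A + PBS mice (log2 fold change −2.18 ± 0.28, adjusted p = 0.00985), and still 2.78-fold above the controls (adjusted p = 0.00141). Only 0.257% of all genes had a lower change between the Con A groups. This fall was called after leaving out any single mouse, with an adjusted p of at most 0.0424.

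Nfkbia, which encodes the inhibitor that traps RelA-p50 dimers, read 690, 746, 466 and 556 in controls, 1544, 986, 1176 and 1850 after Con A + PBS, and 723, 593, 588 and 844 after Con A + hWJ-MSCs. All Con A + PBS mice lay above every mouse of the other groups, and those other groups overlapped. The gene rose 2.23-fold after Con A (adjusted p = 5.38e-04, limma) and was 1.99-fold lower with the cells (adjusted p = 0.0225). That fall was not called without replicate 1 of Con A + PBS or replicate 2 or 3 of Con A + hWJ-MSCs (adjusted p = 0.0744, 0.0739 and 0.066). Between Con A + hWJ-MSCs and Control the log2 difference was 0.17, with a 95% interval of −0.28 to 0.62 (adjusted p = 0.547), so a difference of that size could not be told from none.

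Nfkbie, which encodes a slower IκB protein, read 24, 52, 62 and 42 in controls, 126, 102, 103 and 88 after Con A + PBS, and 102, 77, 93 and 94 after Con A + hWJ-MSCs. Here both Con A groups lay above the controls and overlapped with each other. It rose 2.41-fold after Con A (adjusted p = 0.00101, limma). The log2 difference between the Con A groups was −0.19, with a 95% interval of −0.73 to 0.35, and was not called (adjusted p = 0.617), while Con A + hWJ-MSCs mice stayed 2.11-fold above controls (adjusted p = 0.00459). Of the 3 feedback inhibitors, then, all were called up after Con A, where 19.5% of all genes were, though Tnfaip3 and Nfkbie are listed only through the Con A groups. With the cells 2, Tnfaip3 and Nfkbia, were called down, where 4.38% of all genes were. Whether the inhibitors differed from each other in this was not tested.

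**Figure D2:**
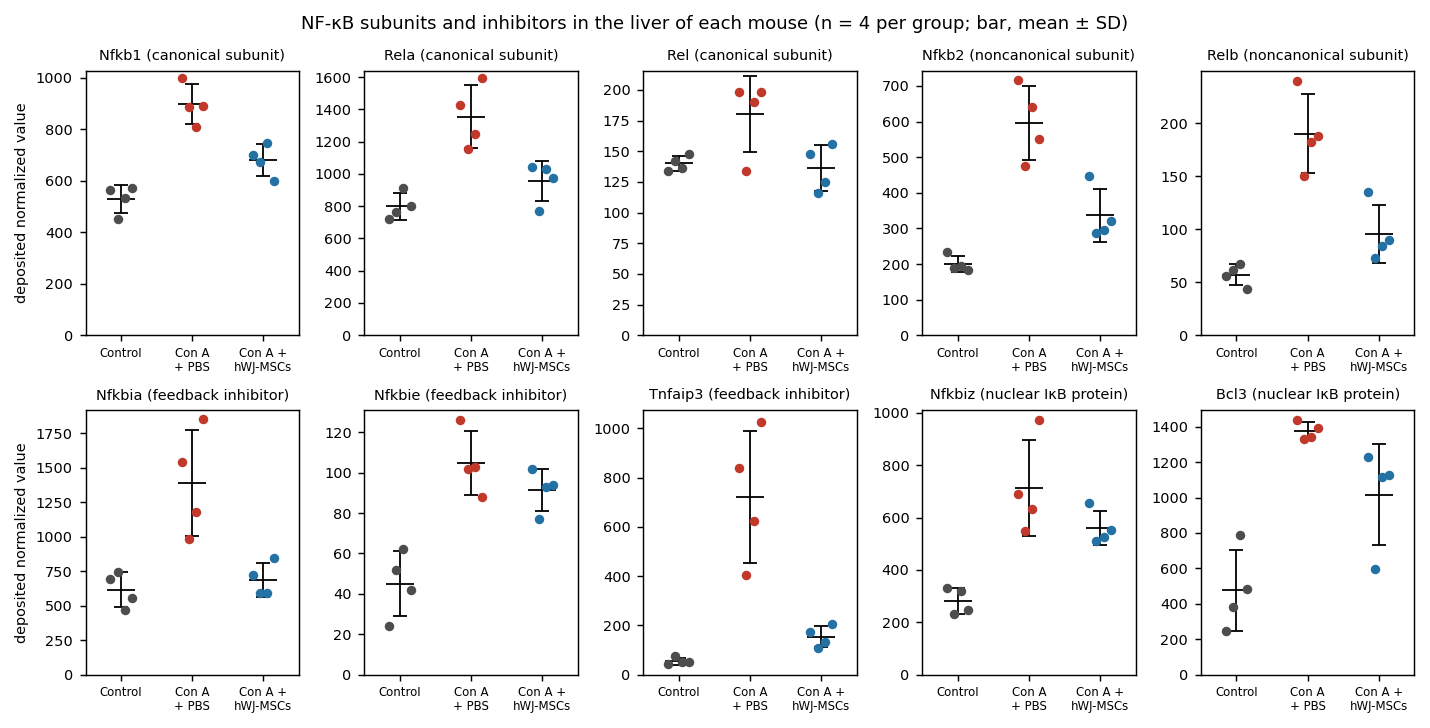
Deposited normalized value of each member (vertical axes, starting at 0) in each of the 12 mice, by group, with points in replicate order and bars for mean ± SD (n = 4 mice). The Con A + PBS mice are above all controls in every panel but that of Rel, and the Con A + hWJ-MSCs mice lie near the controls for Nfkbia and near the Con A + PBS mice for Nfkbie.

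Both noncanonical subunits were called in all 3 comparisons. They were up after Con A (19.5% of all genes), down with the cells (4.38%) and up in Con A + hWJ-MSCs versus Control (13.6%). Relb is listed only through the Con A groups, so its place above the controls is partly fixed by the table's floor. Nfkb2 read 233, 190, 195 and 182 in controls, 716, 476, 640 and 552 after Con A + PBS, and 446, 287, 295 and 320 after Con A + hWJ-MSCs. The groups did not overlap in any pairing. Nfkb2 rose 2.95-fold after Con A (log2 fold change 1.56 ± 0.16, SE, limma adjusted p = 9.67e-06). It was 1.77-fold lower with the cells (adjusted p = 0.0199), and 1.66-fold above controls (adjusted p = 0.00345). The fall with the cells was no longer called without replicate 1 of Con A + PBS or replicate 2 or 3 of Con A + hWJ-MSCs (adjusted p = 0.0696, 0.0683 and 0.0574).

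Relb, which encodes the partner of p52, read 56, 62, 67 and 44 in controls, 240, 150, 182 and 188 after Con A + PBS, and 135, 73, 84 and 90 after Con A + hWJ-MSCs. Again no groups overlapped, with replicate 1 the highest mouse of both Con A groups. Relb rose 3.27-fold after Con A (adjusted p = 3.4e-05, limma), was 2.01-fold lower with the cells (adjusted p = 0.0224) and 1.63-fold above controls (adjusted p = 0.0177). The fall with the cells was not called without replicate 1 of Con A + PBS or replicate 2 or 3 of Con A + hWJ-MSCs (adjusted p = 0.0752, 0.0733 and 0.0646). The call against Control was lost without replicate 4 of the controls or replicate 1 of Con A + hWJ-MSCs, with adjusted p values of 0.0541 and 0.054.

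Of the 3 canonical subunits, 2 were called up after Con A, where 19.5% of all genes were. None was called with the cells, where only 4.38% of all genes were called down and 4.2% up, so nothing is read from that. Nfkb1 read 566, 452, 534 and 571 in controls, 1001, 888, 810 and 892 after Con A + PBS, and 700, 675, 748 and 601 after Con A + hWJ-MSCs. No groups overlapped, yet only the rise after Con A was called (1.69-fold, adjusted p = 1.05e-04, limma). Between the Con A groups the level was 1.32-fold lower with the cells (adjusted p = 0.0379), and between Con A + hWJ-MSCs and Control 1.28-fold higher (adjusted p = 0.0194), both below the fold threshold.

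Rela, the transactivating subunit, read 723, 762, 914 and 798 in controls, 1424, 1152, 1246 and 1596 after Con A + PBS, and 1040, 773, 1030 and 974 after Con A + hWJ-MSCs. The Con A + PBS mice were above all others, and the other groups overlapped. Rela rose 1.69-fold after Con A (adjusted p = 4.61e-04, limma). The 1.42-fold lower level with the cells passed the p threshold (adjusted p = 0.0343) but not that of the fold.

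Rel, which encodes c-Rel and is best known from lymphocytes, was the only member not called after Con A. It read 134, 142, 136 and 148 in controls, 198, 134, 190 and 198 after Con A + PBS, and 148, 116, 125 and 156 after Con A + hWJ-MSCs. The groups overlapped in every pairing. Replicate 2 of Con A + PBS was as low as the lowest control, while the other 3 mice of that group were above all controls, and the Con A + hWJ-MSCs mice spanned the whole range of the controls. The log2 difference after Con A was 0.34 (adjusted p = 0.0606, limma), and 0.48 without replicate 2 of Con A + PBS (adjusted p = 0.00781), still under the fold threshold. Between the Con A groups the log2 difference was −0.39 (adjusted p = 0.0817).

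The nuclear IκB proteins were called up in both Con A groups. Nfkbiz read 332, 230, 318 and 248 in controls, 690, 550, 634 and 974 after Con A + PBS, and 654, 510, 524 and 552 after Con A + hWJ-MSCs. Both Con A groups lay above the controls and overlapped with each other. Nfkbiz rose 2.49-fold after Con A + PBS (adjusted p = 6.11e-05, limma) and 2.00-fold after Con A + hWJ-MSCs (adjusted p = 8.51e-04). The log2 difference between those groups was −0.32, with a 95% interval of −0.70 to 0.06 (adjusted p = 0.213).

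Bcl3 read 248, 382, 787 and 485 in controls, 1436, 1333, 1340 and 1395 after Con A + PBS, and 1227, 597, 1115 and 1128 after Con A + hWJ-MSCs. The Con A + PBS mice were tightly grouped above all others, and replicate 2 of Con A + hWJ-MSCs fell within the range of the controls. Bcl3 rose 3.15-fold after Con A + PBS (adjusted p = 5.8e-04, limma) and 2.24-fold after Con A + hWJ-MSCs (adjusted p = 0.00847). Although every mouse that got the cells was lower than every Con A + PBS mouse, the log2 difference of −0.49 was not called (95% interval −1.14 to 0.16, adjusted p = 0.264), and it was −0.25 without that replicate (adjusted p = 0.591).

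The comparison of the hWJ-MSCs mice with the Con A + PBS mice asks which of these changes were smaller when the cells were given. Of the 10 members, 4 were called down (Tnfaip3, Nfkb2, Relb and Nfkbia) and none up, where 4.38% of all genes were called down and 4.2% up. In 7 members every mouse that got the cells was lower than every Con A + PBS mouse, which held for 11.6% of all genes. The median change of the members was −0.50 on the log2 scale, against 0.00 over all genes. Without replicate 1 of Con A + PBS, or replicate 2 or 3 of Con A + hWJ-MSCs, 1 of the 4 calls was left, that of Tnfaip3. The log2 changes of the other 3 then ranged from −0.96 to −0.73, with adjusted p values of 0.0574 to 0.0752. The calls over all genes fell with them, from 495 genes called lower to 2, 10 and 3 in these 3 fits, so the adjusted threshold in this comparison rests on each of these mice for nearly all genes, and Tnfaip3 was among the few genes left.

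Con A + hWJ-MSCs versus Control asks what was left of the response. The number called up was 6 of 10 (Tnfaip3, Bcl3, Nfkbie, Nfkbiz, Nfkb2 and Relb) with none down, where 13.6% of all genes were called up and 13.1% down. Of these 6, Tnfaip3, Nfkbie and Relb are the 3 members listed only through the Con A groups, so their place above the controls is here too partly fixed by the floor. In 6 members every mouse that got the cells was above every control, which held for 20.6% of all genes. The members' median log2 change was 0.72, against 0.04 over all genes. For 9 of the 10 members the mean with the cells lay between the means of the other groups, the exception being Rel at 136 against 140 in controls.

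**Figure D3:**
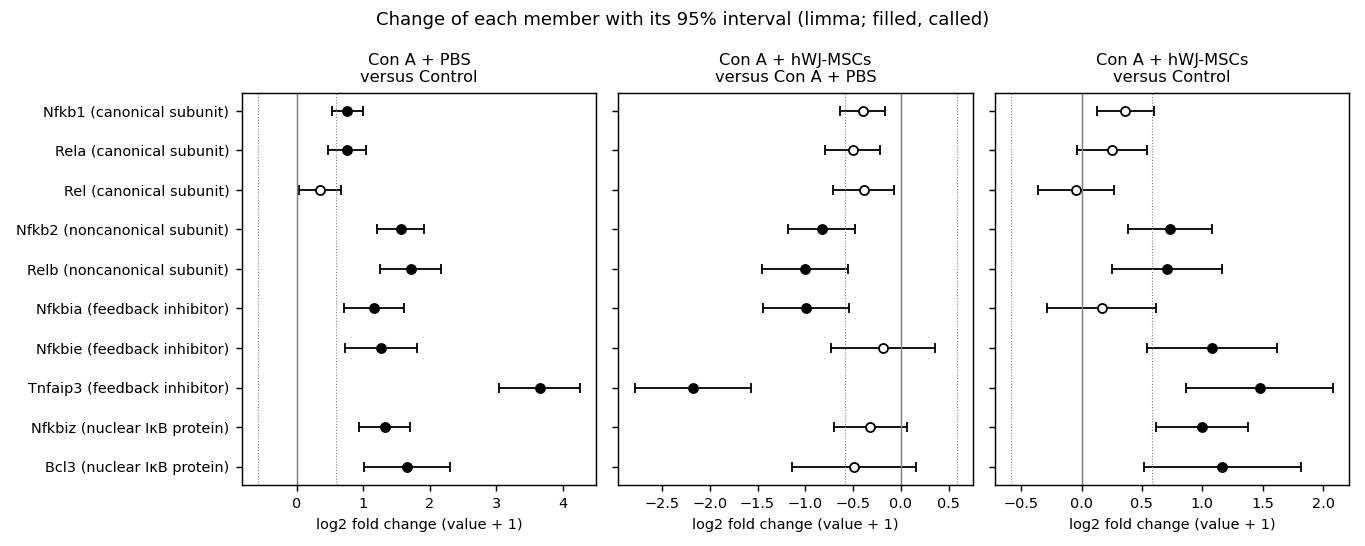
Log2 fold change of each member (points, filled where called) with its 95% interval from limma (bars) in the 3 comparisons, with dotted lines at a fold change of 1.5. The interval of Tnfaip3 is farthest from 0 in the comparisons with Con A + PBS, and the subunits Nfkb1, Rela and Rel have open points in both comparisons of Con A + hWJ-MSCs.

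Roles were compared within each mouse by the mean log2(value + 1) of one role minus that of another. Feedback inhibitors minus all 5 subunits gave −1.36, −0.65, −1.11 and −1.07 in controls, 0.00, −0.20, −0.14 and 0.16 after Con A + PBS, and −0.65, −0.62, −0.63 and −0.26 after Con A + hWJ-MSCs. The group means were −1.05 ± 0.30, −0.05 ± 0.16 and −0.54 ± 0.18 (SD, n = 4). The difference was 1.00 higher after Con A than in controls and 0.49 lower with the cells than without, and the groups did not overlap, although the gap between −0.65 in replicate 2 of the controls and −0.65 in replicate 1 of Con A + hWJ-MSCs was small and closed with a pseudocount of 10. Of the 3 feedback inhibitors, Nfkbie and Tnfaip3 passed the table's floor only through the Con A groups, against Relb alone of the 5 subunits, so the rise over the controls is tilted by that floor. These shifts rested on Tnfaip3. With Nfkbia and Nfkbie alone, a choice made after the values were seen, the difference was 0.19 higher after Con A and 0.04 higher with the cells than without, and all groups overlapped. Only shifts of the difference between groups can be read, since the scale between genes is not known.

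Noncanonical minus canonical subunits gave −1.72, −1.74, −1.82 and −2.17 in controls, −0.66, −0.95, −0.76 and −1.02 after Con A + PBS, and −0.95, −1.43, −1.54 and −1.40 after Con A + hWJ-MSCs. The noncanonical subunits gained 1.02 on the canonical ones after Con A, with no overlap between those groups. Relb is in the table only through the Con A groups and none of the canonical subunits is, so the direction of this gain is partly fixed by the floor. The difference was 0.48 lower with the cells than without, but there replicate 1 of Con A + hWJ-MSCs, at −0.95, lay among the Con A + PBS mice. No p is given for these role scores, since the members were chosen with results known.

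**Figure D4:**
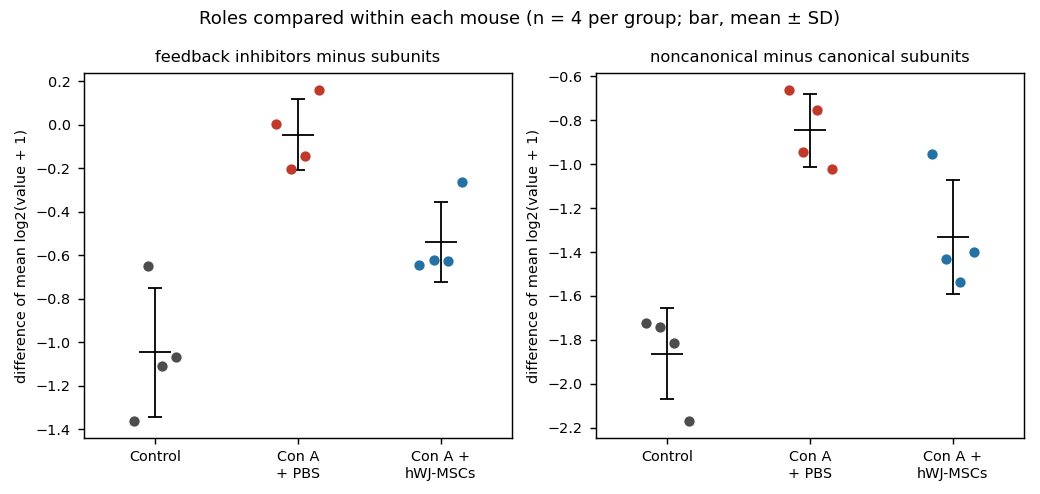
Difference of mean log2(value + 1) between roles in each mouse (points in replicate order, bars for mean ± SD, n = 4 mice), for feedback inhibitors minus subunits (left) and noncanonical minus canonical subunits (right). Con A + PBS mice are highest in both panels, and replicate 1 of Con A + hWJ-MSCs is within the Con A + PBS range in the right panel, while the left panel's shifts rest on Tnfaip3.

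The pattern over the 12 mice was also compared between each member and every other gene, by the root mean square difference of log2(value + 1) centered on the mean of all mice. Nfkb2 and Relb were each other's nearest among 11288 genes, at 0.17. For Tnfaip3 the nearest were Prrg4 at 0.33, Tnfrsf10b at 0.40 and Gm26809 at 0.44, and its nearest member, Relb, came at rank 204. Nfkbie was the nearest member to Bcl3 at rank 8, and Bcl3 the nearest to Nfkbie at rank 69. For the other members the nearest gene was P2rx4 (Nfkb1, 0.11), Azi2 (Rela, 0.09), Tapt1 (Rel, 0.10), Raph1 (Nfkbia, 0.17), Qsox1 (Nfkbie, 0.17), Polr3d (Nfkbiz, 0.16) and Actg1 (Bcl3, 0.27). The next nearest were Vangl1 and Hsd17b12 for Nfkb1, Kars and Jund for Rela, Dlg1 and Zfp281 for Rel, Samd9l and Ddr1 for Nfkb2, Fchsd1 and Rhbdf2 for Relb, Ccp110 and Tmem184b for Nfkbia, Foxa3 and Parp9 for Nfkbie, Tbrg1 and Eif4e for Nfkbiz, and Entpd7 and Mphosph10 for Bcl3. These distances describe the same 12 mice and carry no test.

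The rest of the pathway was read from lists by role, whose counts stand against 19.5% of all genes called up and 19.2% down after Con A, 4.38% down and 4.2% up with the cells, and 13.6% up and 13.1% down between Con A + hWJ-MSCs and Control. The table's floor also touches them: the ligand called up (Il33), 2 of the receptors called up (Tnfrsf9 and Cd14) and 2 of the other inhibitors called up (Tnip3 and Irak3) are listed only through the Con A groups. Of 14 ligands only 5 were in the table, which left out Tnf, Ltb and Il1b, and 1 was called up and 2 down after Con A. Of 20 receptors 12 were in the table, without Cd40 and Tlr4, and 9 were called up and 2 down. The receptor of tumor necrosis factor on most cells, Tnfrsf1a, rose after Con A (log2 fold change 0.79, limma adjusted p = 8.09e-05), and was not called different between the Con A groups (−0.29, adjusted p = 0.0903). Tnfrsf1b, the receptor found mainly on immune and endothelial cells, rose by 1.10 (adjusted p = 9.34e-04) and fell by 0.79 with the cells (adjusted p = 0.0369). Tlr2, a receptor for bacterial lipoproteins, rose by 2.96 (adjusted p = 2.12e-06) and fell by 1.49 with the cells (adjusted p = 0.0174). Ltbr, which signals to the noncanonical branch, rose by 0.83 (adjusted p = 2.77e-04) and differed by −0.06 between the Con A groups (adjusted p = 0.798). The interleukin-1 receptor Il1r1 rose by 2.17 (adjusted p = 1.07e-04) and differed by −0.56 between the Con A groups (adjusted p = 0.219). Of the 12 receptors, 4 were called down and 1 up with the cells.

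All 11 genes of the IKK complex and its upstream kinases were measured. After Con A 3 of them were called up, where 19.5% of all genes were, and none was called in either direction with the cells. The IKK subunits Ikbkb (0.21), Chuk (0.02) and Ikbkg (0.35) gave these log2 differences after Con A and were not called (limma adjusted p = 0.178, 0.915 and 0.0461, the last under the fold threshold). Map3k14, which encodes NIK, rose by 0.87 on the log2 scale (adjusted p = 0.0159), and differed by −0.38 between the Con A groups (adjusted p = 0.34). Map3k8 differed by 0.59 after Con A and was not called (adjusted p = 0.0517). Of 18 measured adaptors and ubiquitin ligases, Traf1 not being in the table, 6 were called up and none down after Con A. With the cells 1 of the 18 was called down, near the 4.38% of all genes. That 1 was Birc3 (cIAP2), whose log2 change with the cells was −0.67 (adjusted p = 0.0188) after a difference of 0.57 that was just under the fold threshold. The adaptors Traf2 and Traf6 were not called in either comparison, with log2 differences of 0.54 and 0.23 after Con A. That of Traf2 passed the p threshold but not that of the fold (limma adjusted p = 0.00363, against 0.106 for Traf6).

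Among 20 other inhibitors of the pathway in the table, which lacks Nfkbid, 9 were called up and 2 down after Con A, and 3 were called down and 1 up with the cells. Nfkbib (IκBβ) rose by 0.69 on the log2 scale (limma adjusted p = 0.00153), Tnip1, a partner of A20, by 0.78 (adjusted p = 1.7e-04), and Traf3, which keeps NIK low, by 0.85 (adjusted p = 2.82e-05). None of these was called with the cells, at log2 differences of −0.17, −0.31 and −0.31. The deubiquitinases Cyld and Otulin were not called in either comparison, at 0.21 and −0.13 after Con A.

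Of 30 listed target genes 21 were in the table, 18 of which were called up after Con A and none down, with a median log2 change of 1.98. The count is partly set by the table, because 8 of these 21, Ccl2 among them, would not have reached 64 in a second control and are listed through the Con A groups. With the cells, 9 of the 21 were called down and none up, with a median of −0.64. The adhesion molecule Icam1 rose by 2.03 (limma adjusted p = 1.36e-06) and fell by 0.61 with the cells (adjusted p = 0.0341), and the monocyte chemokine Ccl2 rose by 5.29 (adjusted p = 1.35e-06) and fell by 1.84 (adjusted p = 0.0254). Vcam1, Cxcl1, Sod2 and Lcn2 rose by 0.83, 2.80, 1.77 and 5.89 and were not called between the Con A groups, at −0.23, −0.67, −0.44 and −0.64. Lcn2 stood at the table's largest value in 1 Con A + PBS mouse. Against Control, 16 of the 21 target genes, 7 of the 12 receptors, 5 of the 18 adaptors, 4 of the 20 other inhibitors and 1 of the 11 kinases were called up in mice that got the cells, all of them but the adaptor Ube2n also called up after Con A + PBS, while 3 receptors and 1 ligand were called down. The share of kinases lay below that of all genes called up in this comparison, 13.6%, and nothing is read from it. Most calls of these lists between the Con A groups were lost without any of the 3 mice named above, since at most 10 genes of the whole table were then called lower.

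**Figure D5:**
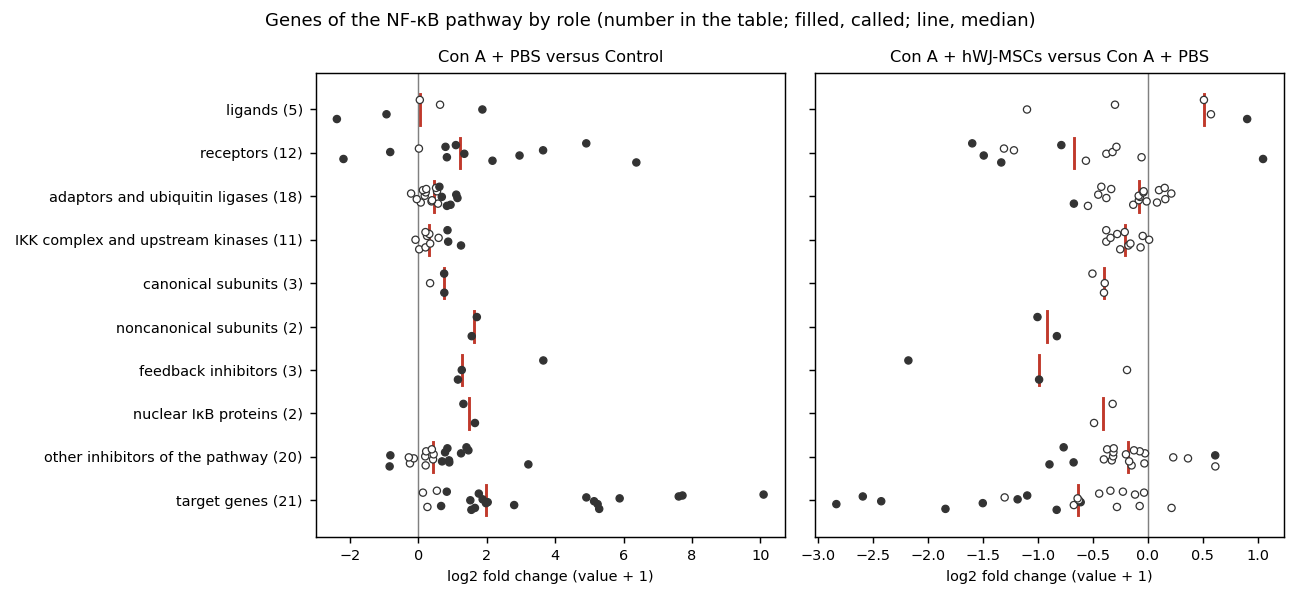
Log2 fold change of every measured gene of the NF-κB pathway (points, filled where called), by role, after Con A (left) and with hWJ-MSCs against Con A + PBS (right), with red lines at each role's median and the number of genes in brackets. Target genes reach the highest values on the left and the lowest on the right, while the kinases lie between −0.08 and 1.25 on the left and have no filled point on the right.

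Markers of other cells moved with the groups. The summed value of 8 general leukocyte markers was 2528 to 3068 in controls, 3673 to 5367 after Con A + PBS and 3064 to 4865 after Con A + hWJ-MSCs, so that the Con A groups overlapped. That of 10 markers of recruited monocytes and neutrophils was 1099 to 1439, 6943 to 8438 and 3202 to 5715, lower in every mouse that got the cells, as were the called members. Without Cd14, which is also in the receptor list, the sum of the other 9 was 1044 to 1379 in controls, and the Con A groups overlapped at 2187 to 3340 and 2193 to 3640. Lyz2, among these 9, went the other way after Con A (log2 fold change −1.39, limma adjusted p = 2.04e-04). It was 616 to 896 in controls, 202 to 358 after Con A + PBS and 246 to 490 with the cells. Kupffer cell markers (8 of 9 in the table) summed to 5145 to 8025 in controls, 743 to 1499 after Con A + PBS and 602 to 1992 after Con A + hWJ-MSCs. For sinusoidal endothelium the 8 markers summed to 3049 to 4547, 1103 to 1817 and 1527 to 2152, and 2 of them were called in opposite directions: Lyve1 rose after Con A by 1.29 on the log2 scale and fell by 0.90 with the cells (limma adjusted p = 0.0224), while Stab2 fell by 0.79 and rose by 0.59 (adjusted p = 0.0199). The 8 stellate cell markers summed to 4166 to 6735, 5116 to 6070 and 3555 to 4827. The last group was below Con A + PBS through Dcn alone, at 4466 to 5402 after Con A + PBS and 2870 to 3810 with the cells, and without Dcn the other 7 summed to 650 to 773 and 657 to 1474, and overlapped. Only 3 of 12 T and NK cell markers were in the table, summing to 23 to 53, 164 to 330 and 216 to 240. All 3 of these, and 6 of the 10 monocyte and neutrophil markers, are in the table only through the Con A groups, so the rise of these sums over the controls is partly fixed by its floor. No measured marker was at 0 in all mice of a group. The part of these shifts in the members' changes after Con A, and of Cd14, Lyve1, Stab2 and Dcn in their changes with the cells, was not tested.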

How the data were processed

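The deposited table holds 1 score per gene and mouse. The scores are whole numbers, but the authors had normalized them across the mice, so they are not raw counts. Per the labels' processing notes they used Bowtie2 2.2.1, RSEM 1.2.18 and the mm10 assembly, and the normalization is not given in the sources used here. Every mouse has nearly the same set of values: totals differ by 0.0425% of their median, 10 genes in each mouse share the largest value, 341028, and every gene reaches at least 64 in its second-highest mouse, so low genes are not in the table. A gene's fold change can therefore not be tied to read depth, and a count model could not be used.

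Samples were grouped by the labels. Values were taken as log2(score + 1), and all 11289 genes were fitted by limma 3.58.1 (R 4.3.3) with a mean-variance trend and adjusted by Benjamini and Hochberg. The log2(value + 1) scale understates changes of low genes. No source says whether the 4 mice of a group shared cages or processing batches, so p-values measure the spread between these mice. Role scores, nearest genes and promoter matches were computed in Python 3.11.15, with transcripts from the GENCODE annotation of the same build. The members, gene lists and tests were chosen with earlier results of these data known. All members, and other pathway genes chosen by role, are named, with the 3 nearest genes of each member. Alternatives were a pseudocount of 10, a mean value of at least 100, median centring, quantile normalization, no trend, array weights, only the 8 mice compared, a replicate block, unadjusted p, other fold thresholds and leaving out each mouse.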

Additional observations from a re-analysis of the deposited data

Results flagged for a closer look

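In each of the 30 sets of 4 mice (10 members in 3 groups) the gap between the extreme mouse and its nearest neighbor was divided by the whole range, both on log2(value + 1). A mouse was singled out where Dixon's limit for 4 samples was passed, which chance does in about 1 of 20 sets. Rel in replicate 2 of Con A + PBS was low, with a gap of 0.894 of the range. Bcl3 in replicate 2 of Con A + hWJ-MSCs was also low, with a gap of 0.867 of the range. Gaps on the deposited values themselves are smaller, so a flag can depend on the scale.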

How the results depend on the processing

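The count of members called after Con A against Control was 9 under most alternatives, 8 with a mean value of at least 100, where Nfkbie was not tested, and 7 with a fold change over 2. Between the Con A groups it was 2 with a fold change over 2, 6 with no fold threshold, and 1 to 4 when a single mouse was left out. Against Control, Con A + hWJ-MSCs gave 3 members with a fold change over 2, 7 with no fold threshold, and 5 to 6 when a single mouse was left out. The fold thresholds bear only on size, and the cause of the calls lost without a mouse was not tested. Over all genes, 474 up and 495 down were called between the Con A groups, 679 and 618 with the replicate block, 910 and 787 by unadjusted p, 163 and 190 with a fold change over 2, 734 and 751 with no fold threshold, and 4 to 846 up and 2 to 729 down when a single mouse was left out. A fold change over 2 gave 1107 up and 1284 down after Con A and 733 and 806 between Con A + hWJ-MSCs and Control, and no fold threshold gave 3328 and 2938, and 2522 and 2082. With the replicate number as a block the counts were 9, 4 and 6, as without it. No source says that the numbers pair the mice, and they were not treated as pairs: of 12 same-numbered pairs, 4 had deviations that correlated above 0.1 (range −0.118 to 0.375), against 3 of 36 pairs with other numbers (range −0.385 to 0.141). Added after the data were seen, the difference between feedback inhibitors and subunits was taken without Tnfaip3: it shifted by 0.188 after Con A, 0.036 between the Con A groups, where it turned, and 0.224 between Con A + hWJ-MSCs and Control.

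Of 597 values of members under alternatives, 585 kept their direction and side of the threshold, 11 lost their call and 1 turned: Rel against Control ran from −0.116 to 0.0252 over single mice left out, above 0 without replicate 2 of Con A + hWJ-MSCs. Of 1437 values of the other named genes, 1387 kept both, 26 lost a call, 16 gained one and 8 near 0 turned. Many values of both sets could hardly change, so the numbers kept are no measure of robustness. The median was equal in every mouse, so median centring changed nothing, and quantile normalization acted on nearly equal sets of values. Leaving out a mouse of the group outside a comparison left the log2 change as it was. After Con A, Chuk was −0.15 with array weights, and −0.15 to 0.13 over single mice left out, below 0 without replicate 1 of the controls or replicate 4 of Con A + PBS. Between the Con A groups, Traf2 was 0.0318 with array weights and −0.11 to 0.0532 over single mice left out, above 0 without replicate 1 or 4 of Con A + PBS or replicate 2 of Con A + hWJ-MSCs. Without that last mouse Ikbkb was also above 0, in a range of −0.205 to 0.0081. Depth is unknown, so counting error and the spread between mice cannot be told apart.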
